A study of Homo sapiens with 6 samples.

Results

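BHT-101, an established anaplastic thyroid carcinoma line, was compared at baseline with FTC-133, an established follicular thyroid carcinoma line, and with 8505C, another established anaplastic thyroid carcinoma line. The 3 control libraries of a series of 6 RNA sequencing libraries were used: BHT-101 and FTC-133 cells given a control siRNA (siControl), and 8505C cells given an empty vector. The other 3 libraries came from BHT-101 and FTC-133 cells given siRNA against CRABP2 (siCRABP2) and from 8505C cells given a CRABP2 expression vector, and they served here only as a second look at each line. CRABP2 is a carrier of retinoic acid inside the cell, and the series asked what lowering or raising it does in these cells. Every group was 1 library of total RNA, so no difference below has a replicate check and no test was made. Whether the cultures of a line were grown separately is not stated in the labels. All controls were transfected, with siRNA in BHT-101 and FTC-133 and with a vector in 8505C, so in 8505C the line and the kind of transfection cannot be told apart.

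The genes described were the protein-coding genes with FPKM (fragments scaled by exon length and by library depth) of at least 1 in 1 or more of the 3 control libraries. There were 11961 of them, among 19945 protein-coding genes and 58884 identifiers in the deposited table. For each gene the margin is the signed distance, on the log2(FPKM + 1) scale, from BHT-101 to the nearer of the other lines, and it is 0 where BHT-101 lies between them. A gene is called higher at a margin of at least 1 and lower at a margin of -1 or less. The added 1 understates differences of genes with low values. Where 2 values are given for a line, the control library comes first and the treated library second.

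Thyroid follicular cells are built and maintained by a small set of transcription factors, among them NKX2-1 and PAX8, which drive the genes of hormone synthesis. Anaplastic carcinomas lose most of this programme, and their cells often take on a spindle shape with a matrix-producing, mesenchymal pattern of expression. Mucous epithelia of the gut and airway instead secrete gel-forming mucins together with trefoil peptides, folded with the help of the protein disulfide isomerase AGR2, and the liver and kidney tubule rely on the HNF4 factors.

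Read totals recovered from the FPKM values were 27958622 for BHT-101, 24823867 for FTC-133 and 22849556 for 8505C. Across the measured genes BHT-101 correlated at Pearson's r of 0.795 with FTC-133 and 0.720 with 8505C, and those 2 lines at 0.729 with each other. These are correlations across genes, which are not independent replicates. Among 18 markers of blood, vessel, muscle, nerve and C cells, 14 were under 1 FPKM in BHT-101, 16 in FTC-133 and 14 in 8505C, and their summed level was 20.6, 8.53 and 23 FPKM. In BHT-101 the leukocyte marker PTPRC was at 0. The level of proliferation genes differed between the lines, with a median over 32 genes of 14.9 FPKM in BHT-101, 31.1 in FTC-133 and 0.578 in 8505C, and its part in the differences below was not tested.

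In the control libraries, 820 of the 11961 genes (6.86%) were higher in BHT-101 than in both other lines, and 534 (4.46%) were lower. The higher genes reached further from the other lines than the lower ones did. A margin of at least 2 was found for 298 higher and 90 lower genes, a margin of at least 4 for 54 and 15, and a margin of at least 5 for 18 and 2. The genes nearest the threshold were CCT3 (1.0002) just inside and SSH3 (0.9994) just outside among higher genes, and GTPBP8 (-1.0008) and ARSB (-0.9981) among lower genes. BHT-101 was not the line with the most such genes. By the same rule FTC-133 had 1043 higher and 330 lower genes, and 8505C had 962 and 1323. Of the measured genes, 548 reached FPKM 1 in BHT-101 alone and 1618 in other lines alone, so in the gene lists below the former lean towards higher calls and the latter cannot be higher. Counts of list members therefore describe the lists and support nothing about them. Each is to be read beside the 6.86% and 4.46% of all measured genes. Of a longer list of 26 markers of other cell types 8 were measured, and 3 of these (37.5%) were higher, each of them also over all 6 libraries. They were the T-cell receptor component CD3D (4.74 FPKM in BHT-101, 0.0434 in FTC-133, 0.141 in 8505C), the muscle filament DES (6.13, 0.196 and 0.0533) and the myelin protein MBP (5.34, 1.5 and 1.91). The monocyte marker CD14 was 3.26, 0.171 and 16.4 FPKM and was not called. The part of other cell types in the higher genes was not tested. The median difference over all measured genes was -0.20 from FTC-133 and 0.00 from 8505C. The split between higher and lower calls depended on scaling and on the added value. Higher genes were 60.6% of the calls with FPKM as deposited, 40.3% (804 higher, 1191 lower) when each library was scaled to the same FPKM total, and 49.9% (1000 and 1006) with an added 0.1 in place of 1. They were 69.6% (955 and 417) with median-of-ratios factors and 66.0% (861 and 444) after quantile normalization. Scaling to the same total moved the median difference to -0.39 from FTC-133 and -0.30 from 8505C. That scaling multiplied the values by 3.07 in BHT-101, 3.44 in FTC-133 and 3.95 in 8505C while the added 1 was kept. The added 1 therefore weighed less there, and its part in the 40.3% was not separated from that of the scaling.

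**Figure D1:**
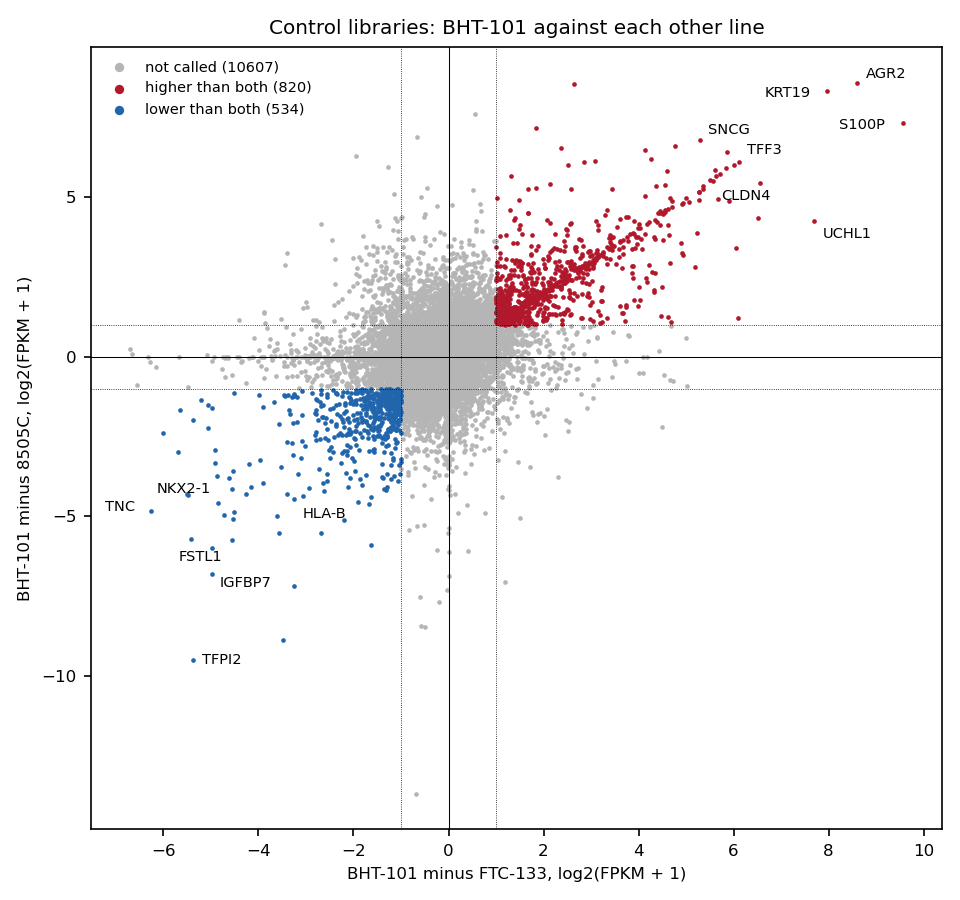
Each point is 1 of the 11961 measured protein-coding genes, placed by the difference of BHT-101 from FTC-133 (horizontal axis) and from 8505C (vertical axis), both in log2(FPKM + 1) units of the control libraries. Red points (820) lie at least 1 above both lines and blue points (534) at least 1 below both, past the dotted lines; AGR2, KRT19 and S100P stand at the upper right, TNC, FSTL1, IGFBP7 and TFPI2 at the lower left.

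The 3 genes farthest above both lines in the control libraries were AGR2, KRT19 and S100P. AGR2 (ENSG00000106541, GRCh38 chromosome 7, 16791811 to 16833433, minus strand) was 388 and 541 FPKM in the BHT-101 libraries, 0 and 0 in FTC-133, and 0 and 0.0164 in 8505C. With 29992 reads in the BHT-101 control library and none in either other control, it was at least 8876-fold higher than in FTC-133 and at least 8170-fold higher than in 8505C, taking 3 reads per library as the most that a count of 0 allows. AGR2 had the largest margin of all measured genes, 8.60. KRT19, a keratin of simple and ductal epithelia (ENSG00000171345, chromosome 17, 41523617 to 41528308, minus strand), was 328 and 350 FPKM in BHT-101, 0.31 and 0.063 in FTC-133, and 0.0187 and 0.0194 in 8505C. The fold over FTC-133 was 1058, with a 95% exact (Clopper-Pearson) interval of 669 to 1785. S100P, a secreted calcium-binding protein named for placenta (chromosome 4, 6693069 to 6697170, plus strand), was 761 and 914 FPKM in BHT-101, 0 and 0.312 in FTC-133, and 3.72 and 1.06 in 8505C. Its fold over 8505C was 205 (171 to 247). For these 3 genes both BHT-101 libraries stood above all 4 others with no overlap. Over all 6 libraries 76.2% of the higher and 61% of the lower calls were kept. Such separation, here and below, therefore sets no single gene apart. In bulk RNA, a gene carried by fewer cells and a gene with less RNA in each cell cannot be told apart. The intervals here and below cover counting error only, and they compare libraries, not lines. Reads without molecular tags are not independent molecules, so the intervals can be too narrow even for counting error.

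Trefoil peptides and some mucins were present in BHT-101 at levels not seen in the other lines. TFF3, the intestinal trefoil factor, was 68.3 and 64.2 FPKM in BHT-101, 0 and 0.063 in FTC-133, and 0 and 0 in 8505C, which made it at least 660-fold higher than in FTC-133. TFF2 was 90.6 and 89.2 FPKM in BHT-101, 0 and 0 in FTC-133, and 3.44 and 0.324 in 8505C. TFF1, the gastric trefoil factor, was 37.7 and 40.1 FPKM in BHT-101, 0 and 0 in FTC-133, and 0.267 and 0 in 8505C. All 3 were apart from the other lines in every library. The gel-forming mucin MUC5B was 12.5 and 15.4 FPKM in BHT-101 and no more than 0.00243 FPKM in the other 4 libraries. MUC5AC, the gel-forming mucin of the stomach and airway surface, was 8.57 and 6.04 FPKM in BHT-101 and 0 in all 4. The antimicrobial peptide DEFB1 was 17.6 and 48.9 FPKM, and again 0 in all 4, so that the BHT-101 libraries also differed from each other.

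Of 33 listed genes for mucins and mucosal secreted proteins, 16 were measured, 11 were higher, 0 lower and 5 not called. The median margin was 2.93, against 0.00 for all measured genes. For 9 of the 16 the FPKM floor was reached in BHT-101 alone, so these had to differ, and for 2 in other lines alone. The count describes the list without supporting it. The other members called were BPIFB1 (3.11), an airway surface protein, TCN1 (2.75), which binds vitamin B12, the membrane mucin MUC13 (2.17) and the lipocalin LCN2 (1.74). All 11 also stood at least 1 above the other lines over all 6 libraries, as did 76.2% of all higher genes. The 6 include the 3 controls that made the calls, so this is no independent check. Further secreted products among the 25 genes farthest above both lines were the pancreatic trypsin inhibitor SPINK1 (45.3 FPKM in BHT-101, 0.0272 in FTC-133, 0 in 8505C), the salivary cystatins CST4 (63.3, 0 and 0) and CST1 (93.1, 0 and 1.15), and the endometrial glycoprotein PAEP (132, 1.22 and 3.49). CST1, CST2 and CST4 are close copies of one another, so the division of reads among them is uncertain.

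**Figure D2:**
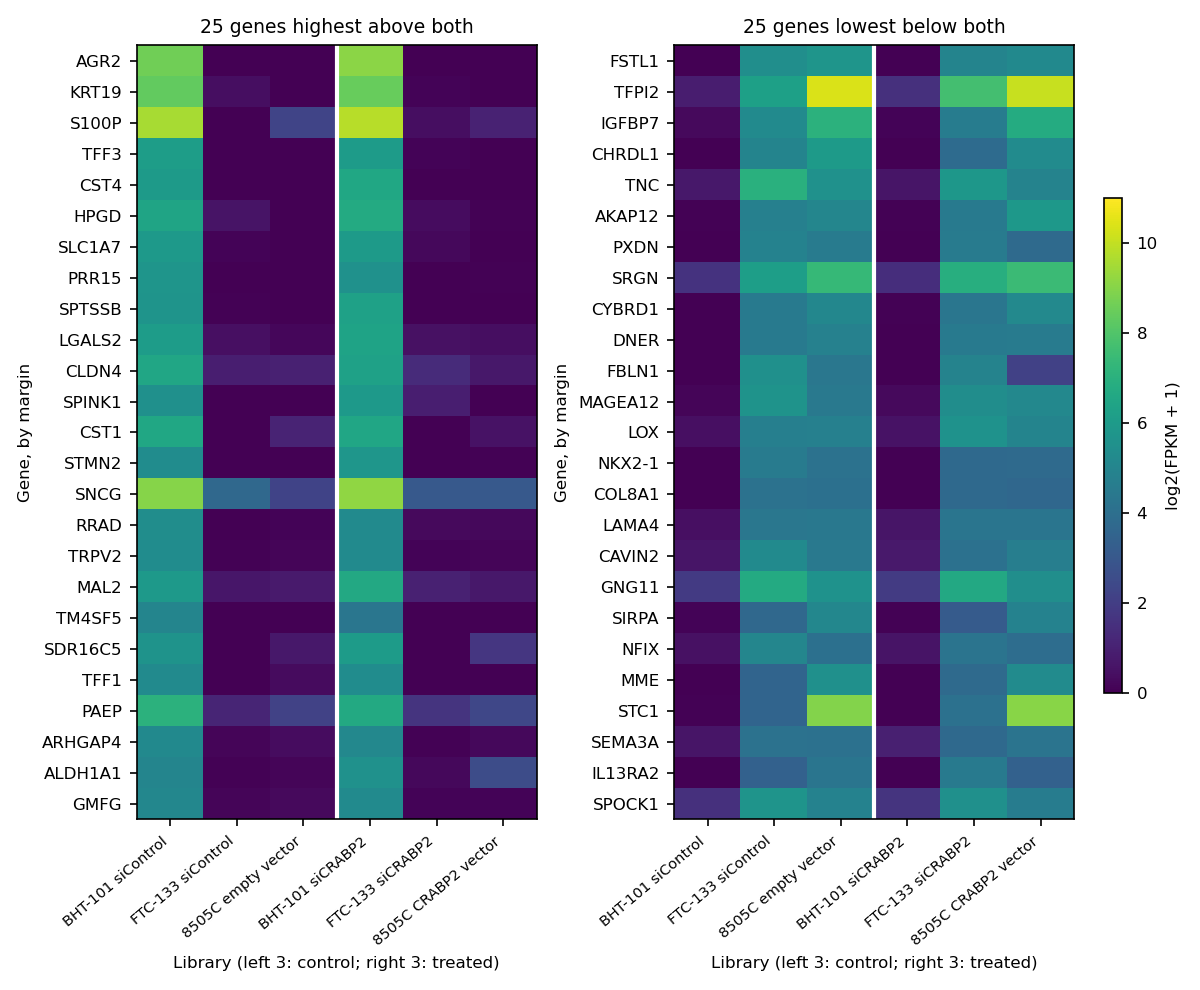
Colour gives log2(FPKM + 1) for the 25 genes with the largest margin (left panel, FPKM of at least 5 in BHT-101) and the 25 with the most negative margin (right panel, FPKM of at least 5 in both other lines). Columns are the 3 control libraries and, right of the white line, the 3 treated libraries; the BHT-101 columns are bright throughout the left panel and dark throughout the right panel in both sets of libraries.

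Epithelial junction genes followed the same direction, without covering the whole programme. Of 41 listed junction genes and regulators, 28 were measured, 15 were higher and 0 lower, with a median margin of 1.17 and with 11 of the 28 reaching the floor in BHT-101 alone. CLDN4, a tight junction claudin, was 90.2 and 77 FPKM in BHT-101, 0.925 and 1.52 in FTC-133, and 0.987 and 0.626 in 8505C, a fold of 97.5 (80.7 to 119) over FTC-133. MAL2, which sorts proteins to the apical membrane, was 61.5 and 99.3 FPKM in BHT-101 and at most 1.03 FPKM elsewhere. ELF3, an epithelial ETS factor, was 21.3 and 20.6 FPKM in BHT-101 against a highest value of 0.819 elsewhere. Both of these stood clear of the other lines in all libraries. The protease inhibitors SPINT2 (73.4 FPKM in BHT-101, 3.6 in FTC-133, 3.17 in 8505C) and SPINT1 (16.6, 0.671 and 0.247) were higher together with ST14 (6.82, 0.666 and 0), the membrane protease that they restrain. EPCAM was 20.4 FPKM in BHT-101, 2.57 in FTC-133 and 0.174 in 8505C.

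E-cadherin, CDH1, was low in absolute terms although it was called higher. Its FPKM was 4.74 and 6.61 in BHT-101, 0.099 and 0.163 in FTC-133, and 0.00717 and 0.0148 in 8505C. N-cadherin, CDH2, was 46.1 and 49.2 FPKM in BHT-101, 37.6 and 23.2 in FTC-133, and 15.8 and 23.2 in 8505C, and was not called. The level of CDH2 in BHT-101 was therefore above that of CDH1 in the same libraries. Among regulators of the epithelial state, the splicing factor ESRP2 was 6.83 FPKM in BHT-101, 0.00724 in FTC-133 and 0.0157 in 8505C. Its relative ESRP1 (0.022 FPKM in BHT-101) and the grainyhead factor GRHL2 (0.0059 FPKM) were close to 0 in BHT-101 as in the other lines. The desmosomal gene DSP was 12.2 and 11.7 FPKM in BHT-101, 0.00401 and 0.0183 in FTC-133, and 5.1 and 13.6 in 8505C, so its call in the controls did not extend to the treated 8505C library.

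Within the keratins, 3 of 11 measured members were higher and 0 lower, of 22 listed. These were KRT19, KRT8 (238 FPKM in BHT-101, 33.3 in FTC-133, 45.8 in 8505C) and KRT4 (2.23, 0.028 and 0). KRT18, the partner of KRT8 in simple epithelia, was 145 FPKM in BHT-101, 18.2 in FTC-133 and 102 in 8505C and fell short of a call at a margin of 0.51. KRT7 did not separate the lines, at 49.2, 44.2 and 57.4 FPKM. Claudins were higher for 3 of 9 measured members of 19 listed, namely CLDN4, CLDN2 (8.67 FPKM in BHT-101, 0.0118 in FTC-133, 0 in 8505C), which forms cation pores in leaky epithelia, and CLDN3 (9.1, 1.96 and 0.309). CLDN7 had a margin of 0.30 in the controls and -0.20 in the treated libraries.

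Of 25 listed transcription factors of liver, kidney and gut, 7 were higher in BHT-101. FOXA2, a pioneer factor of endoderm (chromosome 20, 22581005 to 22585455, minus strand), was 22.5 and 23.5 FPKM in BHT-101, 0 and 0 in FTC-133, and 0 and 0.0348 in 8505C. HNF4A was 3.33 and 2.56 FPKM in BHT-101, with 680 reads in the control library, against 1 read in each of the other controls (0.00551 and 0.00599 FPKM). Both factors were thus found in each BHT-101 library and were at or near 0 in the rest. CEBPA, which drives hepatocyte and myeloid genes, was 11.9 and 19.2 FPKM in BHT-101 and no more than 0.627 FPKM elsewhere, and HNF4G was 8.19 FPKM in BHT-101, 0.184 in FTC-133 and 0.883 in 8505C. PROX1 (margin 1.25) and FOXA3 (1.21) were also higher.

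Of these factors 11 were measured, 7 of them through BHT-101 alone, with 1 lower and a median margin of 1.25. The lower one was LHX1, a factor of the early kidney, at 1.17 and 1.09 FPKM in BHT-101, 11.3 and 2.18 in FTC-133, and 15.4 and 11.1 in 8505C. Its call did not hold in the treated libraries, where the margin was -0.60, or over all 6 (-0.55). GATA6 was 3.01, 2.13 and 0.795 FPKM and SOX9 5.28, 7.49 and 22.2 FPKM in BHT-101, FTC-133 and 8505C, and KLF5 lay between the other lines. The factors that were not measured were under 1 FPKM in every control library. Among them, in BHT-101, FOXA1 was at 0.267 FPKM (33 reads), ONECUT2 at 0.218 FPKM (101 reads), NR1I3 at 0.141 FPKM, NR5A2 at 0.0806 FPKM and GATA4 at 0.00805 FPKM, and CDX1, CDX2, PDX1, PAX2, ONECUT1, SOX17 and NR1H4 were at 0 in all 6 libraries.

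Some genes that are textbook products of hepatocytes or of absorptive epithelium were present beside these factors, while most listed liver-type secreted proteins were not measured. VIL1, the actin bundler of microvilli, was 25.2 and 22.9 FPKM in BHT-101 and 0 in all 4 other libraries. TM4SF5, a tetraspanin-like membrane protein, was 30.9 and 19.1 FPKM in BHT-101 and also 0 in all 4. CYP27A1, the sterol 27-hydroxylase of bile acid synthesis, was 29.5 and 33.7 FPKM in BHT-101, 0.176 and 0.123 in FTC-133, and 0.0293 and 0.0455 in 8505C. The clotting proteins F5 (22 FPKM in BHT-101, 0.0113 in FTC-133, 0 in 8505C) and F2, prothrombin (9.44, 0 and 0), were higher, as was the hyaluronan-binding protease HABP2 (23.8, 0.0111 and 0). Of 28 listed liver-type secreted proteins 11 were measured, 6 of them through BHT-101 alone, with 6 higher, 0 lower and a median margin of 1.16. Besides F2 these were FGL1 (3.62), AMBP (3.39), SERPINA1 (2.84), APOH (2.53) and FGB (1.16). The listed members not measured did not reach 1 FPKM in any control library, BHT-101 included. VIL1, TM4SF5, CYP27A1, F5 and HABP2 are not on this list and were named by other rules.

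Promoters of the genes farthest above both lines were searched for motifs of the factors present in BHT-101, a step chosen after the values were seen. RefSeq promoters (GRCh38.p14, the 250 bases before the start) were found for 79 of the 127 genes with a margin of at least 3 and for 9499 measured gene symbols. The letters CAAAGNNCA, an HNF4-type element with 2 free bases read on both strands (TGNNCTTTG on the other), occurred in 8 of the 79 (10.1%), in 4.33% of measured genes, in 4.68% of lower genes and in 5.43% of all 27305 genes with a promoter. The strict form CAAAGTCCA, whose matches also count in the looser form, occurred in 1.27% of the 79 and 0.347% of measured genes. The forkhead letters TGTTTAC occurred in 1.27% of the 79 and 3.06% of measured genes, and TGTTTGC in 5.06% and 3.23%. In promoters of genes lower by at least 2 the shares were above those in the 79, at 6.15% for TGTTTAC and 9.23% for TGTTTGC. The TATA letters, TATAAA, occurred in 19% of the 79 and 8.01% of measured genes, but also in 18.5% of the promoters of genes lower by at least 2. Base composition moved with these sets: median G+C was 58.8% in the 79, 60.4% in genes lower by at least 2, 65.6% in all lower genes and 65.2% in measured genes, and its part in the shares was not tested. A match describes letters in a window and is neither a binding site nor a cause.

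Of the 8 promoters with a match, 5 overlap an annotated exon and are not shown. The other 3, all on the plus strand, show how the element sits in such genes, with each match to CAAAGNNCA or its reverse in capitals. They belong to TM4SF5 (chr17:4771636-4771885), ABCC2 (chr10:99782390-99782639), which holds 2 matches, and MISP (chr19:750862-751111), which holds the strict form on the minus strand.
TM4SF5: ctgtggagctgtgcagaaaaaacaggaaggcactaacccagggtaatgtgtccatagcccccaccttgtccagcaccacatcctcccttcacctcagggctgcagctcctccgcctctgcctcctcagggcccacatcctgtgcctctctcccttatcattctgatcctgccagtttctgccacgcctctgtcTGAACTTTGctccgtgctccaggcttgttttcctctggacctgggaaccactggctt
ABCC2: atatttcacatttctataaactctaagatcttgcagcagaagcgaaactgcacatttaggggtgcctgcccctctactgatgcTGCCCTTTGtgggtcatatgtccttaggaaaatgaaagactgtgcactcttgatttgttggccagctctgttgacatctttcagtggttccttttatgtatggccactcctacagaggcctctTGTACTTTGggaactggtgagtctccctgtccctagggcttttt
MISP: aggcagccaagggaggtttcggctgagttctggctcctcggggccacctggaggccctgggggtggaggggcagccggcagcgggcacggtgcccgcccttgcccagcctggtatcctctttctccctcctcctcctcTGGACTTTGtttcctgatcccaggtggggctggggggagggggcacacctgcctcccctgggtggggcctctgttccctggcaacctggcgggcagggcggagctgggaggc
The match lies 57 to 49 bases before the start in TM4SF5 and 112 to 104 bases before it in MISP. MISP, an actin-binding protein of the mitotic spindle and cell cortex that was picked here for its promoter, was 26.1 and 21.4 FPKM in BHT-101, 0.0946 and 0.0123 in FTC-133, and 0.543 and 1.2 in 8505C. ABCC2, the canalicular exporter of conjugated bilirubin, was 21 and 21.5 FPKM in BHT-101, 0 and 0.0235 in FTC-133, and 0.262 and 0.15 in 8505C. All 3 genes were higher in both BHT-101 libraries than in every other library. They were taken from genes with a margin of at least 3, and 76.2% of all higher genes kept their call over all 6 libraries.

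Thyroid identity genes were checked against the label of the lines. NKX2-1, the thyroid and lung homeobox factor (chromosome 14, 36516392 to 36521149, minus strand), was 0 and 0 FPKM in BHT-101, 22.6 and 12.4 in FTC-133, and 16.7 and 13.1 in 8505C. It was at least 666-fold lower than in FTC-133 and at least 493-fold lower than in 8505C. PAX8 was 0.233 and 0.273 FPKM in BHT-101, 12.3 and 13 in FTC-133, and 0.184 and 0.141 in 8505C, so here BHT-101 was like 8505C and only FTC-133 kept the gene. Of the other factors, FOXE1 was at 0 FPKM in the BHT-101 control, and HHEX, which is not restricted to thyroid, was 2.5 FPKM, between FTC-133 (1.45) and 8505C (7.57). BHT-101 had no reads of thyroglobulin (TG), the TSH receptor (TSHR) or the deiodinase of iodotyrosines (IYD), and 1 read of the iodide transporter SLC5A5. Neither other line had more than 0.451 FPKM of any of these. PAX8 had 48 reads in the BHT-101 control library.

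One gene of hormone handling was called in the other direction. DIO1, the type 1 deiodinase that is abundant in thyroid, liver and kidney, was 4.06 and 3.2 FPKM in BHT-101, 0.124 and 0.0484 in FTC-133, and 0.0959 and 0.0198 in 8505C. The fold over FTC-133 was 32.9 (15.7 to 82.5), on 259 reads against 7. Of 21 listed thyroid genes 9 were measured, and besides DIO1 (higher) and NKX2-1 (lower) the other 7 were not called. Among these 7, DIO2 was 1.5 and 1.75 FPKM in BHT-101, 0.392 and 0.442 in FTC-133, and 0.42 and 0.405 in 8505C. Its margin of 0.81 fell short of a call.

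Thyroid cancer driver genes were mostly not called. Of 33 measured members of 35 listed, 1 was higher (PPARG, 13.4 FPKM in BHT-101, 5.81 in FTC-133, 2.81 in 8505C), 1 was lower and 31 were not called, a share of 3.03% in each direction beside 6.86% and 4.46% of all measured genes. The call of PPARG did not hold over all 6 libraries, where its margin was 0.17, and no member was called there. BRAF was 1.4, 1.71 and 2.63 FPKM and NRAS 32.2, 33.8 and 34.9 FPKM in BHT-101, FTC-133 and 8505C. TERT was 1.04 FPKM in BHT-101 and 1.15 in FTC-133, against 0.038 in 8505C.

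Of the genes best known from nerve cells that are described here, SNCG (margin 5.29) and STMN2 (5.36) were among those farthest above both lines. The others were brought together from other rules, because no gene list was of nerve cell genes alone. NES (4.14) was named through the list of stemness and oncofetal regulators, and L1CAM (2.89) as a neighbour of other higher genes on its chromosome. SNCG, gamma-synuclein, was 512 and 584 FPKM in BHT-101, 12.1 and 7.36 in FTC-133, and 3.64 and 7.52 in 8505C, a fold of 42.2 (38.1 to 46.8) over FTC-133. STMN2, a stathmin of growing axons, was 39.9 and 53.2 FPKM in BHT-101, 0 and 0 in FTC-133, and 0 and 0.0383 in 8505C. UCHL1, a neuronal deubiquitinase chosen here after its value was seen, was 214 and 230 FPKM in BHT-101, 0.0353 and 0.0161 in FTC-133, and 10.3 and 23.5 in 8505C. The intermediate filament NES, a marker of neural progenitors, was 48.4 FPKM in BHT-101, 1.81 in FTC-133 and 0.511 in 8505C, and the adhesion molecule L1CAM was 66.1, 2.58 and 8.07 FPKM. The neuroendocrine markers CHGA (0.0118 FPKM) and SYP (0.158 FPKM) were near 0 in BHT-101. Other genes known from nerve cells were called lower, and were picked for this paragraph after their values were seen. Among them were DNER and BDNF, given below, and CNTN6 (0 FPKM in BHT-101, 8.62 in FTC-133, 7.39 in 8505C). BEX1 (0, 7.35 and 19.7) and SEMA3A (0.545, 16.8 and 16.1) were lower too, so nerve cell genes went in both directions. NES was also 1 of 5 higher members among 11 measured stemness and oncofetal regulators (22 listed, 0 lower, median margin 0.29). The others were ALDH1A1, IGF2BP1 (2.74), SOX4 (2.02) and KLF4 (1.31).

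Some detoxifying enzymes and exporters were higher in BHT-101, and most were not called. Of 27 measured NRF2 targets and aldo-keto reductases (29 listed), 12 were higher, 0 lower and 15 not called, with a median margin of 0.60 and 3 members reaching the floor in BHT-101 alone. AKR1C3, which reduces steroid and prostaglandin ketones, was 103 and 143 FPKM in BHT-101, 4.04 and 6.29 in FTC-133, and 1.53 and 1.32 in 8505C. AKR1B10, a retinal and aldehyde reductase, was 78 and 111 FPKM in BHT-101, 3.09 and 3.63 in FTC-133, and 0.0741 and 0.102 in 8505C. The libraries of BHT-101 did not overlap with the others for either gene. The glutathione peroxidase GPX2 was 11 FPKM in BHT-101, 0 in FTC-133 and 0.146 in 8505C. TXNRD1 (168, 52.1 and 69.9 FPKM) and TKT (93.7, 45.1 and 27.8 FPKM) were closer to the other lines. AKR1C1 to AKR1C4 are near-identical copies, so the reads of each are uncertain.

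The exporter ABCB1, the P-glycoprotein of multidrug resistance, was 13.8 and 13.6 FPKM in BHT-101, 0 and 0.0127 in FTC-133, and 0.00754 and 0.0156 in 8505C. It was at least 663-fold higher than in FTC-133, and its fold over the single read in 8505C was 1831 (328 to 72339). Of 23 measured efflux and detoxification genes (30 listed), 7 were higher, 1 lower and 15 not called. The neighbour of ABCB1, ABCB4, which flips phosphatidylcholine into bile, was 2.79 FPKM in BHT-101, 0.00521 in FTC-133 and 0.00566 in 8505C. ABCC3 (25.4, 2.19 and 2.63 FPKM) was higher too, and the lower member was the vitamin D hydroxylase CYP24A1 (0.0628, 3.58 and 3.02 FPKM).

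In lipid metabolism, 6 of 34 measured cholesterol and fatty acid genes were higher and 0 lower, and over all 6 libraries 3 were higher. SQLE, squalene epoxidase, was 164 and 111 FPKM in BHT-101, 14.4 and 27.2 in FTC-133, and 11.4 and 10.3 in 8505C. Its fold over FTC-133 was 11.4 (10.8 to 12). DHCR7, the last enzyme of cholesterol synthesis, was 43.1 and 27.4 FPKM in BHT-101 against 20.9 and 29.3 in FTC-133, so its call did not hold in the treated libraries. HPGD, which inactivates prostaglandins, was among the 25 highest margins, at 85.9 and 105 FPKM in BHT-101, 0.495 and 0.273 in FTC-133, and 0.0158 and 0.0327 in 8505C.

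In the retinoid system, CRABP2 itself was called higher in the BHT-101 control. It was 27.3 FPKM (826 reads) in BHT-101, 8.94 FPKM (240 reads) in FTC-133 and 0.607 FPKM (15 reads) in 8505C, a fold of 3.06 (2.64 to 3.54) over FTC-133. The treated libraries cannot serve as a second look here, because CRABP2 was the target. ALDH1A1, which makes retinoic acid from retinal, was 31.1 and 46.6 FPKM in BHT-101, 0.0426 and 0.168 in FTC-133, and 0.123 and 4.82 in 8505C. RARB, the receptor gene that retinoic acid induces in many cells, was 1.35 and 1.73 FPKM in BHT-101, 7.06 and 6.07 in FTC-133, and 4.92 and 8.41 in 8505C. So an enzyme of retinoic acid synthesis and its carrier were higher, and this receptor was lower. Of 22 measured members (34 listed), 6 were higher and 2 lower, with the other higher ones RARRES1 (2.58), the fatty acid-binding protein FABP5 (1.81), the transglutaminase TGM2 (1.57) and RARRES3 (1.37), and PPARD the other lower one (-1.57).

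Immune genes moved in both directions. Among acute-phase and complement genes 19 of 32 were measured, 9 were higher and 2 lower, with a median margin of 0.49. C1S, a protease that starts the classical pathway, was 28.6 and 65.4 FPKM in BHT-101, 2.23 and 2.48 in FTC-133, and 7.71 and 3.08 in 8505C. Its margin was 1.77 in the controls and 4.02 in the treated libraries, and that of its partner C1R was 1.37 and 3.74. The complement-decay factor CD55 was lower, at 6.47 and 7.17 FPKM in BHT-101, 18.3 and 47.6 in FTC-133, and 132 and 47.3 in 8505C. PTX3, a long pentraxin, was also lower (0.057 FPKM in BHT-101, 3.87 in FTC-133, 35.8 in 8505C). The reads of SAA1 (margin 3.84) are uncertain because of its close copy SAA2.

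Of 30 measured chemokines and cytokines (36 listed), 7 were higher and 4 lower. CCL5, which draws T cells, was 145 and 273 FPKM in BHT-101, 7.23 and 21.8 in FTC-133, and 0.613 and 0.302 in 8505C. CX3CL1, a membrane-anchored chemokine, was 8.06 FPKM in BHT-101, 0.122 in FTC-133 and 0 in 8505C. CXCL1, which draws neutrophils, was 1.27 and 2.56 FPKM in BHT-101, 20.5 and 216 in FTC-133, and 333 and 122 in 8505C. The alarmin IL33 was 0 in both BHT-101 libraries against 3.23 FPKM in FTC-133 and 12.9 in 8505C. BHT-101 thus ranked first for the former pair and last for the latter.

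Interferon-stimulated genes were higher for 8 of 43 measured members (44 listed) and lower for 0, and 3 of the 8 held over all 6 libraries. The helicase DDX60 was 32.1 and 46.8 FPKM in BHT-101, 0.0836 and 0.393 in FTC-133, and 2.58 and 2.97 in 8505C. OASL was 40.2 FPKM in BHT-101 and 5.94 in FTC-133, and the margin fell from 2.57 to 1.21 in the treated libraries, where FTC-133 had 24.2 FPKM. HLA-B, a class I antigen-presenting chain, was 4.61 and 10.5 FPKM in BHT-101, 52.4 and 74.3 in FTC-133, and 122 and 119 in 8505C. Of 24 measured antigen-presentation genes (34 listed) it was the 1 called lower, and TAPBPL the 1 called higher. That is 4.17% in each direction, beside 6.86% higher and 4.46% lower of all measured genes. HLA-C (175, 214 and 146 FPKM) and B2M (167, 158 and 381), whose values were looked at afterwards, were not called. HLA genes differ between people and resemble one another, so reads can be lost or shared at mapping.

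Signalling genes were described by pathway role. Among WNT and Notch ligands, WNT6 was 17 and 14 FPKM in BHT-101 and no more than 0.0214 FPKM elsewhere, and JAG2 was 15 FPKM in BHT-101, 1.06 in FTC-133 and 1.11 in 8505C. The secreted WNT inhibitor DKK1 was lower (1.59, 6.48 and 8.39 FPKM), as was the receptor NOTCH3 (0.103, 2.68 and 3.55). Neither call held in the treated libraries (margins of -0.84 and -0.61) or over all 6 (-0.52 and -0.58). Altogether 7 of 27 measured members (41 listed) were higher and 2 lower, and over all 6 libraries 5 were higher and 0 lower. HES4 was higher in the controls (25, 3.13 and 1.41 FPKM), but the treated FTC-133 library reached 33 FPKM and passed both BHT-101 libraries.

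In the TGF-beta family, 4 of 30 measured members (33 listed) were higher and 4 lower. INHBB, the activin B subunit, was 17.1 and 16.3 FPKM in BHT-101, 0.0251 and 0 in FTC-133, and 0.246 and 0.184 in 8505C. The activin A subunit INHBA was the reverse, at 0.0345 and 0.124 FPKM in BHT-101, 33.4 and 133 in FTC-133, and 3.82 and 4.56 in 8505C. The activin subunits were thus divided between the lines. The receptor TGFBR1 was lower (2.77 FPKM in BHT-101, 11.5 in FTC-133, 12.2 in 8505C), BMP4 was higher (22.1, 2.95 and 2.22) and its antagonist NOG was lower (0.151, 2.64 and 2.13). GDF15 was higher in the controls at 61.7 FPKM against 6.04 in FTC-133 and 2.98 in 8505C, yet 76.2 FPKM in the treated FTC-133 library.

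Of 19 measured members of the IGF system (21 listed), 2 were higher and 5 lower. The carrier IGFBP2 was 66.9 and 49 FPKM in BHT-101, 0.0255 and 0.031 in FTC-133, and 5.34 and 3.7 in 8505C. IGFBP7 was 0.204 and 0.0928 FPKM in BHT-101, 37.2 and 23.6 in FTC-133, and 135 and 108 in 8505C. IGFBP3 (4.25, 15.8 and 129 FPKM) and IGFBP5 (0.00553, 36.1 and 1.56) were lower too, though over all 6 libraries the margin of IGFBP3 was -0.81. Among YAP and TEAD factors and their targets, 5 of 19 measured members (21 listed) were lower and 1 higher, with a median margin of -0.42. The lower ones were the tissue factor gene F3 (2.71, 20.8 and 46 FPKM), the matricellular CTGF (21.6, 53.3 and 51.9), the factor TEAD1 (4.89, 11.8 and 34.3), the kinase LATS2 and the receptor AXL (15.7, 33 and 64.8). Over all 6 libraries 3 were lower, without TEAD1 (-0.44) and LATS2 (-0.89).

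The growth regulator MYC was 110 and 104 FPKM in BHT-101, 5.25 and 7.84 in FTC-133, and 19.1 and 36.2 in 8505C. It was 1 of 2 higher genes among 25 measured MAPK feedback and early genes (27 listed), with SPRY1 (9.76, 1.26 and 2.6 FPKM), while FOSL1 was lower (15.7, 43.3 and 46.5). The shares of this list were 8% higher and 4% lower, beside 6.86% and 4.46% of all measured genes. ERBB3 was higher (8.46 FPKM in BHT-101, 0.0134 in FTC-133, 1.06 in 8505C), and EGFR and ERBB2, looked at afterwards, lay between the other lines. Of 32 proliferation genes 1 was higher (3.12%, beside 6.86% of all measured genes), MCM4 at a margin of 1.03, and 0 lower. Its call did not hold over all 6 libraries, where the margin was 0.79. Of 14 measured BCL2 family genes (18 listed) 4 were higher and 0 lower, the killer BIK first (20 and 14.9 FPKM in BHT-101, 0.0424 and 0.232 in FTC-133, 0.552 and 0.952 in 8505C), followed by BMF, BAX and BBC3. Only 1 of these 4 held over all 6 libraries, and BBC3 was 9.89 FPKM in the treated FTC-133 library against 5.94 in the treated BHT-101 library.

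HOX genes, which record the body position of a cell's ancestors, were called in 2 clusters. Of 23 measured (39 listed), 5 were higher, all in the HOXB cluster, 2 lower, both in HOXC, and 16 not called. Over all 6 libraries 3 were higher and 1 lower. HOXB2 was 19.1 and 21.8 FPKM in BHT-101, 0.655 and 0.882 in FTC-133, and 0 and 0 in 8505C. HOXC8 was 0.0888 and 0.0741 FPKM in BHT-101, 2.28 and 1.73 in FTC-133, and 5.11 and 4.52 in 8505C. Cancer-testis antigens were higher for 5 and lower for 5 of 23 measured members (37 listed). Over all 6 libraries 5 of these antigens were higher and 2 lower. MAGEA3 (181 FPKM in BHT-101, 73.2 in FTC-133, 72.7 in 8505C) and MAGEA12 (0.109, 49.5 and 20.9) went in opposite directions. Reads of the MAGEA, GAGE, XAGE and VCX copies are uncertain.

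**Figure D3:**
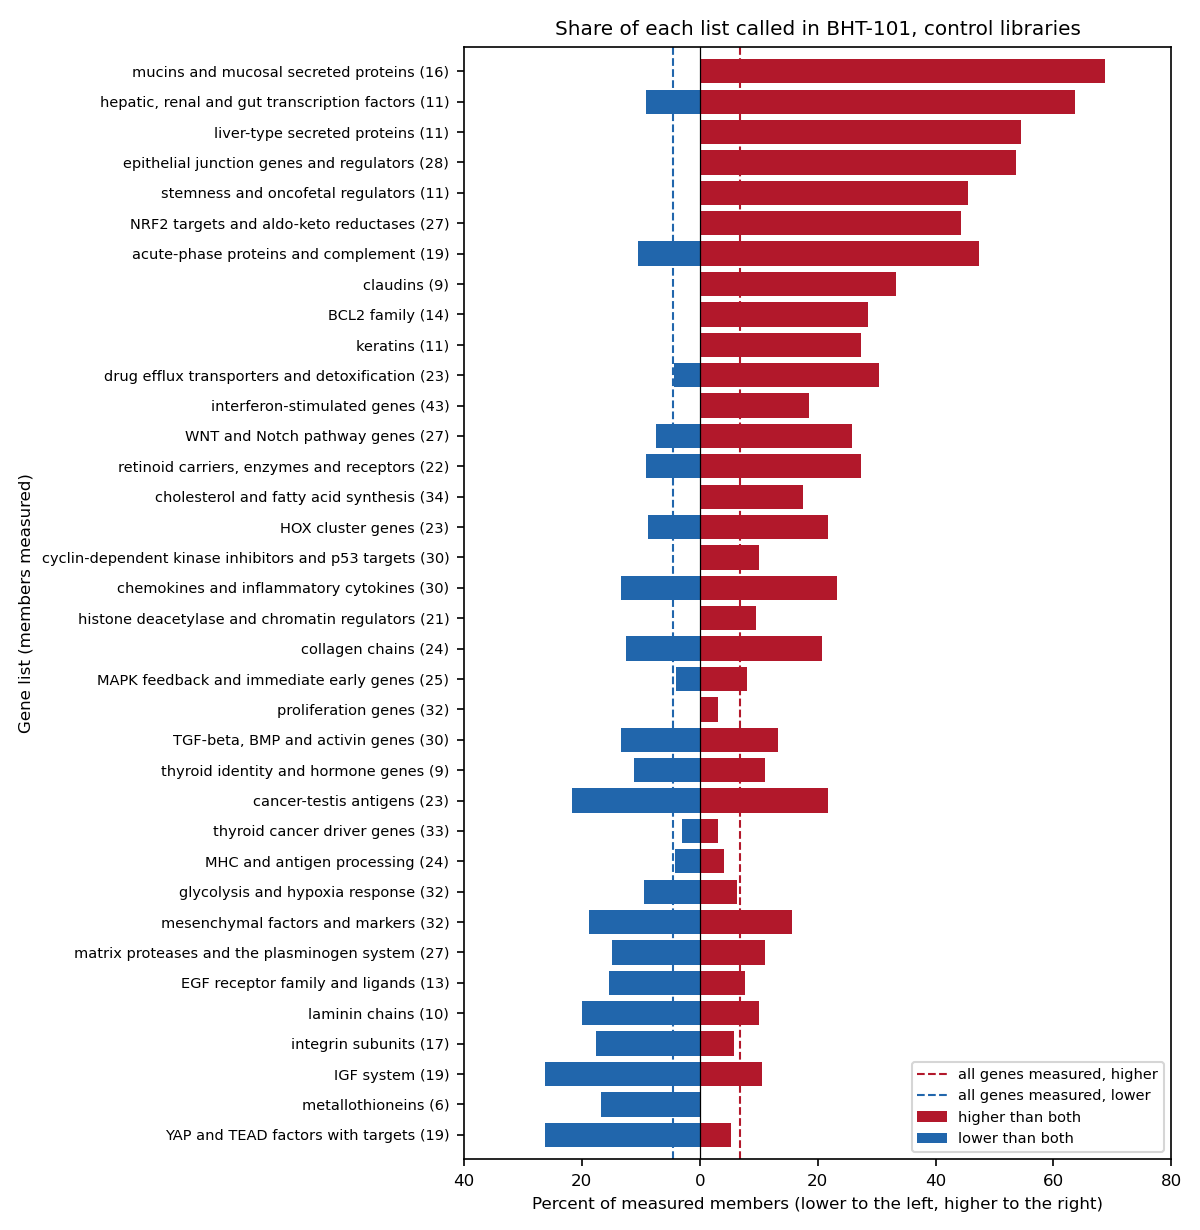
Bars show the share of measured members of each gene list called higher (red, to the right) or lower (blue, to the left) in BHT-101, with the number measured in brackets and dashed lines at the shares over all genes (6.86% and 4.46%). The list of markers of other cell types (3 of 8 higher) is not drawn. Lists are ordered from mostly higher to mostly lower; mucosal secreted proteins (11 of 16) stand at the top, and YAP and TEAD genes (5 of 19 lower) at the bottom.

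The genes farthest below both lines were led by secreted and matrix proteins. FSTL1, a secreted glycoprotein of mesenchymal cells (ENSG00000163430, chromosome 3, 120392293 to 120451253, minus strand), was 0.0211 and 0 FPKM in BHT-101, 42.6 and 30.1 in FTC-133, and 52.1 and 36.7 in 8505C. Its fold below FTC-133 was 2016 (863 to 6209), on 5 reads against 8948. TFPI2, an inhibitor of matrix-degrading serine proteases (chromosome 7, 93885396 to 93890991, minus strand), was 0.849 and 1.87 FPKM in BHT-101, 75.6 and 209 in FTC-133, and 1341 and 1087 in 8505C. TNC, tenascin, was 0.649 and 0.529 FPKM in BHT-101, 126 and 56.2 in FTC-133, and 45.7 and 29.6 in 8505C. For all 3 both BHT-101 libraries lay below the other 4. The collagen crosslinker LOX (0.38 FPKM in BHT-101, 25.7 in FTC-133, 26.5 in 8505C), the basement membrane peroxidase PXDN (0, 28 and 23.2) and the elastic fibre protein FBLN1 (0.0295, 44.8 and 19.6) were lower. So were the BMP antagonist CHRDL1 (0, 30.3 and 62.9) and the proteoglycans SRGN (2.09, 71.7 and 165) and SPOCK1 (1.84, 51.2 and 28.2).

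Membrane and intracellular genes were found among the lowest 25 as well. The scaffold AKAP12, which anchors protein kinase A, was 0.0489 FPKM in BHT-101, 26.9 in FTC-133 and 31.9 in 8505C. The ferric reductase CYBRD1 was 0.0138, 22.4 and 33.1 FPKM, and the peptidase MME was 0, 10.8 and 45 FPKM. SIRPA, the receptor for the CD47 signal, was 0.0706, 12.2 and 33.4 FPKM. The transcription factor NFIX was 0.42, 32 and 15.9 FPKM. All of these were also lower over all 6 libraries.

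Mesenchymal factors and markers were called in both directions. Of 36 listed mesenchymal factors and markers 32 were measured, 11 of them through the other lines alone, with 5 higher, 6 lower and 21 not called, with a median margin of 0.00. VIM, vimentin, was 134 and 107 FPKM in BHT-101, 391 and 494 in FTC-133, and 151 and 192 in 8505C. ZEB1, a repressor of epithelial genes, was 1.86 FPKM in BHT-101, 6.18 in FTC-133 and 7.25 in 8505C and was called lower, while SNAI2 (3.18, 2.83 and 1.18 FPKM), TWIST1 (3.85, 21.2 and 5.65) and FN1 (60.1, 604 and 51.6) were not called. The mesenchymal marker CDH11 was called higher, at 8.47 and 9.46 FPKM in BHT-101, 1.37 and 0.74 in FTC-133, and 3.38 and 3.52 in 8505C. The higher ones included S100A4, a calcium-binding protein of motile cells, at 2338 and 2221 FPKM in BHT-101, 371 and 213 in FTC-133, and 5.23 and 5.6 in 8505C. LUM, the proteoglycan lumican, was 80.2 and 75.5 FPKM in BHT-101, 13.2 and 6.53 in FTC-133, and 0.262 and 0.0848 in 8505C. Both exceeded every library of the other lines.

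Collagen chains also went in both directions, with 5 of 24 measured members (30 listed) higher and 3 lower. COL18A1, of basement membranes, was 22 FPKM in BHT-101, 1.36 in FTC-133 and 0.0515 in 8505C, and COL6A1 was 189, 80.5 and 21.6 FPKM. COL8A1 was 0 and 0 FPKM in BHT-101, 16.9 and 12.6 in FTC-133, and 15.8 and 11.8 in 8505C. The fibrillar chains COL3A1 (0, 1.71 and 2.67 FPKM) and COL5A1 (1.84, 94.5 and 7.06) were lower in the controls. Neither call held in the treated libraries (margins of -0.74 and -0.80), and over all 6 libraries 3 collagens were higher and 1 lower. Among laminins, LAMA3, the epithelial alpha chain, was higher (17.7, 1.87 and 3.97 FPKM), and LAMA4, the alpha chain of vessels and mesenchyme, was lower (0.372, 19.5 and 20.3). Of 17 measured integrin subunits (25 listed) 1 was higher (5.88%, beside 6.86% of all measured genes) and 3 lower (17.6%, beside 4.46%). Over all 6 libraries 1 was higher and 2 lower. The fibronectin receptor chain ITGA5 was 7.88 and 9.27 FPKM in BHT-101, 60 and 100 in FTC-133, and 27 and 35.6 in 8505C.

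In the plasminogen system, PLAU, urokinase, was 22.2 and 15.6 FPKM in BHT-101, 152 and 260 in FTC-133, and 267 and 202 in 8505C, a fold of 6.83 (6.5 to 7.18) below FTC-133. Matrix proteases and this system together had 3 of 27 measured members (33 listed) higher and 4 lower. Over all 6 libraries 0 were higher and 4 lower. HIF1A, the hypoxia-inducible factor subunit, which is no member of the list below and was looked at afterwards, was 33.8 and 37.6 FPKM in BHT-101, 239 and 261 in FTC-133, and 178 and 203 in 8505C. Of the list's 3 lower members, VEGFA was 2.61 FPKM in BHT-101, 14.1 in FTC-133 and 24.6 in 8505C, and NDRG1 was 3.55, 15.6 and 63.3 FPKM. The third, BNIP3, was 11.1, 32.5 and 28 FPKM, and its call did not hold in the treated libraries (margin of -0.90). The prolyl hydroxylase EGLN3 was higher (6.7, 0.142 and 0.369 FPKM). Of 32 measured glycolysis and hypoxia genes (33 listed), 2 were higher and 3 lower, which left 27 not called. The shares were 6.25% and 9.38%, beside 6.86% and 4.46% of all measured genes.

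Presence and absence were also counted without the log scale. A total of 59 genes were at 5 FPKM or more in BHT-101 and under 0.1 FPKM in both other controls, and 48 of them met this in all 6 libraries. They included SLC1A7, a glutamate transporter (60.3 FPKM in BHT-101, 0.0745 in FTC-133, 0 in 8505C), PRR15 (51.7, 0 and 0), SPTSSB, a subunit of serine palmitoyltransferase (50.8, 0.043 and 0.0234), RRAD, a small GTPase (40.7, 0.0252 and 0.082), and LAD1, a filament-anchoring protein (23.4, 0.0347 and 0). In the other direction 22 genes were under 0.1 FPKM in BHT-101 and at 5 FPKM or more in both other lines, of which 18 met this in all 6. Besides FSTL1, NKX2-1 and others named above, they included the Notch-related DNER (0, 21.9 and 27.9 FPKM), STC1 (0.0433, 10.6 and 492), the decoy receptor IL13RA2 (0, 9.59 and 18.5), the neurotrophin BDNF (0.0462, 8.46 and 12.4) and the peptide hormone APLN (0.0888, 8.42 and 8.76). Of all higher genes with recovered reads, none had fewer than 20 of them in BHT-101.

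Position along the chromosomes was looked at next. Runs of 3 or more consecutive measured genes called in the same direction numbered 19 for higher genes (72 genes) and 7 for lower genes (21 genes). The longest, of 7 genes, lay on chromosome X from 153785766 to 153944691 and held IDH3G, SSR4, L1CAM, AVPR2, ARHGAP4, NAA10 and RENBP. ARHGAP4, a GTPase-activating protein, was 36.5 and 34.2 FPKM in BHT-101, 0.123 and 0.0527 in FTC-133, and 0.306 and 0.162 in 8505C. Several runs are gene families: TFF3, TFF2 and TFF1 with SLC37A1 (chromosome 21, 42311667 to 42581440), CST3, CST4, CST1 and CST2 (chromosome 20, 23626706 to 23826731), and the AKR1C genes with KLF6 (chromosome 10, 3775996 to 5218949). On chromosome 12, LPCAT3, C1S, C1R, C1RL and CLSTN3 (6976186 to 7158945) formed one run and CD9, TNFRSF1A, SCNN1A, LTBR and TAPBPL (6199715 to 6466517) another. CYP27A1, WNT6 and WNT10A were neighbours on chromosome 2 (218781749 to 218899581), and PON3, PON2, ASB4 and PDK4 on chromosome 7 (95359944 to 95596491). Lower runs included MKX, ARMC4 and MPP7 (chromosome 10, 27672875 to 28334486) and LOX, SNX2 and SNX24 (chromosome 5, 122063195 to 123029354). SQLE, WASHC5, NSMCE2 and TRIB1 formed a run on chromosome 8, as did TATDN1, NDUFB9 and MTSS1.

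Called genes were spread unevenly over chromosomes. Chromosome X had 11.1% of its 452 measured genes higher, chromosome 12 had 10% of 620 higher and 1.61% lower, and chromosome 13 had 1.96% of 204 higher. Chromosome 8 was above the whole in both directions, with 9.07% of 441 higher and 12% lower. Chromosome 5 had 8.23% of 547 lower and chromosome 15 had 8.02% of 374 lower. Gene copy number was not measured here, and its part in these shares was not tested.

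**Figure D4:**
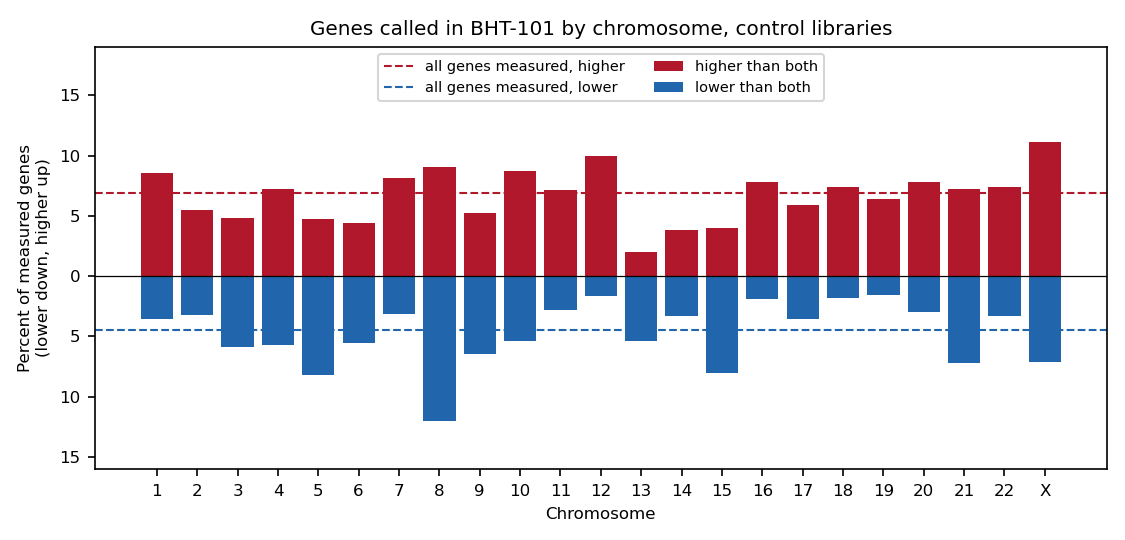
Bars show the percent of measured protein-coding genes on each chromosome called higher (red, upward) or lower (blue, downward) in BHT-101, with dashed lines at the shares over all genes (6.86% and 4.46%). Chromosome X (11.1%) and chromosome 12 (10%) reach highest, chromosome 13 (1.96%) least, and chromosome 8 extends farthest downward (12%).

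The treated libraries gave a second look at each line, under a treatment that differed between lines. Of the 820 higher genes, 676 (82.4%) again had a margin of at least 1, and of the 534 lower genes 361 (67.6%) had a margin of -1 or less. Over all 6 libraries, taking the nearest pair between the BHT-101 libraries and the other 4, 625 genes (5.23%) were higher and 326 (2.73%) lower. That kept 76.2% of the higher and 61% of the lower calls, and the controls that made the calls are among the 6. The siControl and siCRABP2 libraries of BHT-101 were also compared for the genes called in the controls. The median absolute difference between them was 0.15 for higher genes, whose median margin was 1.64, and 0.09 for lower genes, whose median margin was -1.32. They differed by at least 1 for 13 of the higher genes and 1 of the lower. Lower genes can lie near 0 in BHT-101, where the added 1 compresses differences, so their small value was largely fixed by the rule. The same difference over all measured genes is not given, so these values describe the called genes and support nothing about them. A single higher gene changed side, TM4SF19 (2.96 and 2.57 FPKM in BHT-101, 0.361 and 3.93 in FTC-133, 0.53 and 7.58 in 8505C). It was picked out after its value was seen. CSF2, the growth factor of granulocytes and macrophages, also lost its call, at 2.04 and 3.52 FPKM in BHT-101 against 0.204 and 37.9 in FTC-133.

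**Figure D5:**
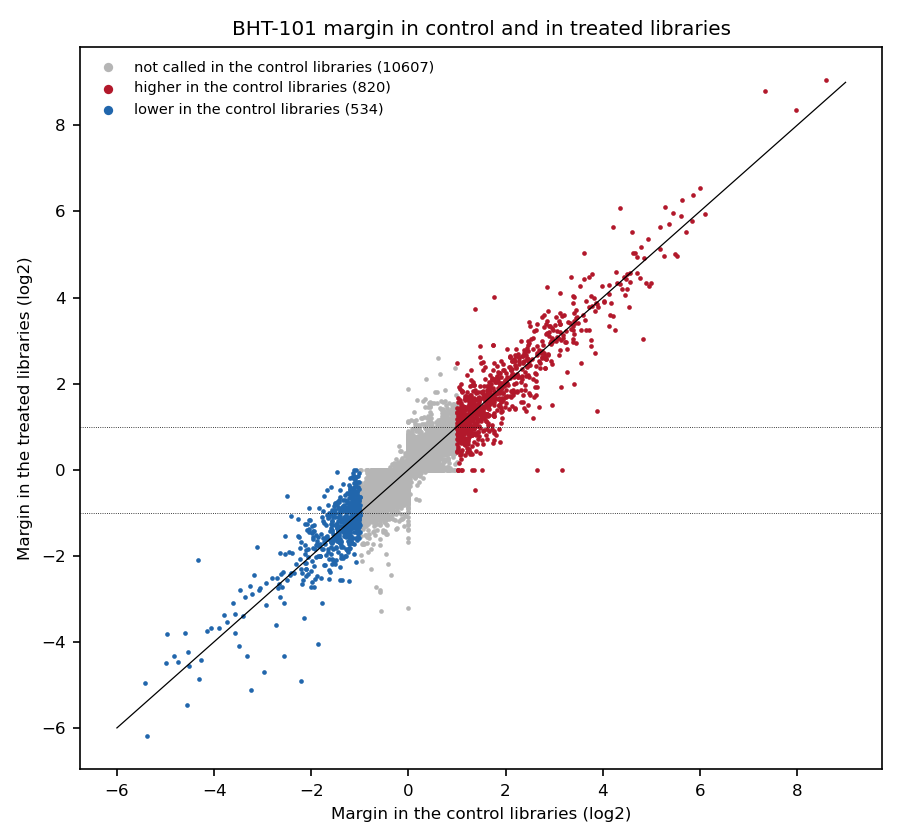
Each point is a measured gene, placed by its margin in the control libraries (horizontal axis) and in the treated libraries (vertical axis), both in log2(FPKM + 1) units, with the line of equal values and dotted lines at 1 and -1. Most red (higher, 820) and blue (lower, 534) points follow the line; 676 and 361 of them stay past the dotted lines, and 1 red point lies below 0.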

How the data were processed

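The deposited table holds FPKM per gene for 6 libraries, 1 per group, scaled by the authors for exon length and depth. FastQC, Trimmomatic 0.38, featureCounts 2.0.0 and GRCh38 are named, per the submitters' processing notes. The aligner, annotation release and strand setting were not given in the sources used here. Reads of antisense or overlapping genes cannot be told apart. Names, biotypes and positions came from GENCODE release 29. FPKM times exon length gave whole reads, within 0.001, for 98.7% of the 17704 protein-coding genes above 0 (54.3% at the release 29 length, the rest at a length found by search).

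Values were analysed as log2(FPKM + 1) with Python 3.11.15, pandas 2.3.3, numpy 2.4.6 and scipy 1.17.1, and the scripts were tested on simulated data. With 1 library per group no test was made. Members, 37 gene lists (1043 distinct genes, 776 measured) and rules were chosen with earlier results of these data known. Named genes are the 25 farthest above and below both lines, up to 4 called members per list and direction, all thyroid, driver and hepatic, renal and gut factors, CRABP2, members of runs, and up to 15 present or absent in BHT-101 alone; other named genes were chosen after their values were seen. Lists with no values named here are metallothioneins, CDK inhibitors and p53 targets, and chromatin regulators, with 0 of 6, 3 of 30 and 2 of 21 measured members higher and 1, 0 and 0 lower. Alternatives were another pseudocount, filter, scaling, size threshold and set of libraries. Some genes are not reported here, and the counts of lists include them.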

Additional observations from a re-analysis of the deposited data

How the results depend on the processing

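No paired analysis was possible because each group has 1 library and no test was made. With a margin of at least 2 the counts were 298 higher and 90 lower. Genes lower in BHT-101 numbered 1006 with a pseudocount of 0.1, 1191 with each library scaled to the same FPKM total, and 326 over all 6 libraries, which can only be fewer. Genes present in BHT-101 alone numbered 160 at 1 against 0.1 FPKM and 121 at 5 against 0.5 FPKM, and genes absent from it alone 101 at 1 against 0.1 FPKM. Over all 6 libraries 11 runs of higher and 2 of lower genes were left. The sign of the margin was followed for the genes named by rule. Those that changed sign, none of them called, were ARID1A (0.04), CLDN7 (-0.20) and SNAI2 (-0.06) in the treated libraries, and HRAS (-0.01) scaled to the same total. Outside that set, the called gene TM4SF19 also changed side in the treated libraries. The cause was not tested. Of 275 genes named by rule and called, 219 kept the call over all 6 libraries, 229 in the treated libraries, 259 after quantile normalization, 261 scaled to the same total, 264 with median-of-ratios factors and all 275 with a pseudocount of 0.1. The last outcome was fixed in advance, because a smaller pseudocount can only widen a margin. Of the counts of list members, 19 moved by over 1.5 times over all 6 libraries, 8 with a pseudocount of 0.1, 7 after quantile normalization and 6 with median-of-ratios factors. Depth limits folds against lines with few reads, given as bounds or wide intervals.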

Other observations

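Noncoding genes were counted by the same rule, a step added after the data were seen. Of 1514 measured, 182 (12%) were higher in BHT-101 than in both other lines and 36 (2.38%) lower. H19, an imprinted RNA of fetal tissues, was 16.1 and 36.2 FPKM in BHT-101, 0.0417 and 0.0254 in FTC-133, and 0.0302 and 0.0469 in 8505C, and both BHT-101 libraries lay far above the others. AFAP1-AS1, an antisense RNA, was 10.1 and 9.26 FPKM in BHT-101 and at most 0.0773 FPKM elsewhere; since the strand setting is not given, its reads cannot be told apart from those of overlapping genes. The largest margin was that of the intergenic RNA AL391056.1, at 28.3 and 27.2 FPKM in BHT-101 and no more than 0.0415 FPKM elsewhere. Among lower ones, LINC02434 was 0 and 0 FPKM in BHT-101, 5.06 and 12.8 in FTC-133, and 13.4 FPKM in the 8505C control. The antisense transcript LHX1-DT was lower together with its neighbour LHX1, at 2 FPKM in BHT-101, 21.8 in FTC-133 and 8.83 in 8505C.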
